A study of Mus musculus with 20 samples.

Results

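Among 10 mouse kidney tumors, 3 had the lowest RNA levels of proliferation genes and were compared with the other 7. The tumors were selected on these levels. For each library the counts were divided by the library total and scaled to one fixed total for all libraries (CPM), and log2(CPM + 1) was averaged over 10 genes of cell division, Mki67, Top2a, Cdk1, Ccnb1, Bub1, Aurkb, Plk1, Cdc20, Kif11 and Ube2c. The 3 tumors with the lowest average, tumors 1, 5 and 8, are called slow here and the other 7 fast. The split rests on RNA of whole tissue. No cell division was measured, and fewer dividing cells cannot be told apart from less of these RNAs per cell.

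All 20 libraries of the series, 10 tumors and 10 normal kidneys, came from mice of one genotype. The mice carried the Pax8-Cre allele and the Lox-Stop-Lox Cas9 allele on a C57BL/6 background, so that Cas9 was limited to cells with a history of Pax8, a transcription factor of the renal tubule epithelium. An adeno-associated virus (AAV) with no Cre of its own was injected into the kidney and carried guide RNAs that target Tsc1, Keap1, Vhl and Pbrm1. Slow and fast tumors therefore share the inherited alleles and the same virus, and the normal tissue was taken from animals given that virus. The extent of editing of the targeted genes can differ from tumor to tumor and was not compared here. Age, sex and time of collection were not in the labels. The methods list male and female mice for the injection. How the sexes fell between slow and fast tumors is not known here and was not tested. Each tumor was a piece of bulk tissue in which the edited cells are mixed with other cells. The methods give 10 mice for the 10 tumors and 10 kidneys, and the labels do not tie a sample number to a mouse.

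A dividing cell switches on its genes in waves. Genes of DNA replication are transcribed as cells enter S phase, largely under E2F factors, and genes of mitosis follow in G2, where the DREAM and B-MYB-FOXM1 complexes act through the CHR element and CCAAT boxes of their promoters. The RNA of such genes is a common measure of how many cells of a tissue are cycling. The proximal tubule, the part of the nephron from which clear cell renal carcinoma is thought to arise, burns fatty acids as its main fuel, and the nuclear receptor PPAR alpha (Ppara) drives many genes of that pathway.

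Promoters of 4 genes described below are shown in the next lines, since Ccnf, Cdca3 and Hadhb had no overlap between slow and fast tumors and Acot12 held the closest match to a PPAR alpha element in its list. Each is the stretch of 250 bases before a RefSeq transcription start on GRCm38.p6, written 5′ to 3′ on the gene's strand. Capitals mark CCAAT and TTTGAA (the CHR) on either strand in Ccnf and Cdca3, and a direct repeat of AGGTCA with 1 base between in Acot12, of the kind that PPAR alpha binds. Cdca3 held CCAAT alone, and no capitals stand in Hadhb, where none of the 3 motifs was found in the bases shown.
Ccnf, chr17:24251410-24251659, minus strand: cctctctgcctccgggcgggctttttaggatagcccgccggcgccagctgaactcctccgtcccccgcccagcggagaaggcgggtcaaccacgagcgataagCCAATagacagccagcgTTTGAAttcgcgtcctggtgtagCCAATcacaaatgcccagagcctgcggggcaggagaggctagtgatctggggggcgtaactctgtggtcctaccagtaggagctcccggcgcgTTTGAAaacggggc
Cdca3, chr6:124829926-124830175, plus strand: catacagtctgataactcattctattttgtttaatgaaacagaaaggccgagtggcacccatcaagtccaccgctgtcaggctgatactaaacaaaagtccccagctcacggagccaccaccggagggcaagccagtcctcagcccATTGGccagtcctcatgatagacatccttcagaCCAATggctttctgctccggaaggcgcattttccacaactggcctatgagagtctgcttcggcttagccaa
Hadhb, chr5:30155003-30155252, plus strand: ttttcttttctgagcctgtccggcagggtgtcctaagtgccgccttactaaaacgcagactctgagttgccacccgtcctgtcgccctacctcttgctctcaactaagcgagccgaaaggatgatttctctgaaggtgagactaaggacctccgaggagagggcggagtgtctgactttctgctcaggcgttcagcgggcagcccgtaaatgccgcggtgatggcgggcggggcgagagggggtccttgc
Acot12, chr13:91741271-91741520, plus strand: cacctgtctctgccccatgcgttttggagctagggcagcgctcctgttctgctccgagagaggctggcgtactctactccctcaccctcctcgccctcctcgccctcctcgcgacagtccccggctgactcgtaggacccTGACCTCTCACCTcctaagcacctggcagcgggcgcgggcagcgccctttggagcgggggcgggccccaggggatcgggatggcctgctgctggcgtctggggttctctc

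The RefSeq windows were searched whole, from 250 bases before to 50 after each start, on both strands and for each motif on its own, so that matches may share bases. Of 83 genes of the rule and mitosis lists, 66 had a window, with 71 windows in all. A CCAAT stood in 71.8% of these and in 37.4% of all 32851 windows, and a TTTGAA in 66.2% against 17.9%. Both motifs stood in 54.9% of the mitosis windows and in 6.95% of all. The fatty acid oxidation list had 25 of its 30 genes matched, with 27 windows, and AGGTCANAGGTCA with up to 2 mismatches stood in 14.8% of them, against 3.86% of all. That was 4 windows, those of Slc25a20, Acox2, Etfa and Acot12, and the Acot12 match had 1 mismatch. The windows of Hadhb and Hadha, which encode both subunits of the mitochondrial trifunctional protein, lie head to head on opposite strands and overlap for most of their length. A match is a description of the letters and not of a bound site.

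The score was 1.41 in tumor 5, 1.54 in tumor 8 and 1.87 in tumor 1, the member just inside the limit. Tumor 4, just outside, had 2.79, and the fast tumors reached 4.43 in tumor 7 with a median of 3.31. The same 3 tumors were the lowest with a pseudocount of 0.1 or with library sizes normalized by the trimmed mean of M values (TMM). In the normal kidneys the score ran from 0.918 to 4.26 with kidney 7 the highest. The slow tumors lay within this range, and so did every fast tumor but tumor 7. Without kidney 7 the range ended at 2.30 in kidney 4, and of the tumors only the slow ones lay within it.

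**Figure D1:**
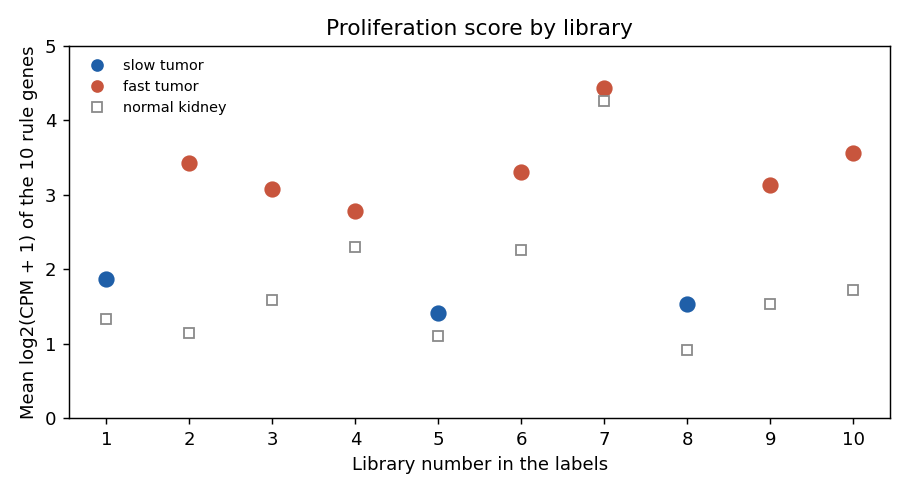
Mean log2(CPM + 1) of the 10 rule genes (vertical axis) in each library, by the number in its label (horizontal axis), with filled circles for tumors and open squares for normal kidneys. Tumors 1, 5 and 8 lie between 1.41 and 1.87, below the lowest fast tumor at 2.79, and tumor 7 and kidney 7 are the highest of their kinds at 4.43 and 4.26.

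Levels from here on are CPM with TMM-normalized library sizes. Total counts were 19063632 to 20522328 in the slow tumors and 18447394 to 24902973 in the fast. The share of mitochondrially encoded counts was 4.33% ± 0.780 (SD, n = 3) against 3.57% ± 0.814 (SD, n = 7), with an exact two-sided permutation p of 0.225, and the lowest p over the 5 library measures compared, for the TMM factor, was 0.108 (Benjamini-Hochberg adjusted 0.281). With 3 against 7 there are 120 arrangements, so that no exact p can be under 0.00833. Of the fast tumors, tumor 7 stood apart in its mix of cells. Its 31 markers of fibroblasts and pericytes summed to 14413 CPM against 1359 to 3265 in the other fast tumors and 1216 to 2606 in the slow, its neutrophil markers to 786 CPM, and its 51 proximal tubule genes to 6857 CPM against 16010 CPM or more in the other tumors. Markers of the nephron beyond the proximal tubule summed to 266 to 489 CPM in the tumors against 5960 to 14260 CPM in the normal kidneys, with Umod, the product of the thick ascending limb, at 5.53 CPM or less against a median of 4193 CPM in normal kidney. Of the proximal tubule genes, Lrp2, the endocytic receptor megalin, was at 3284, 1810 and 1592 CPM in the slow tumors and 456 to 4891 CPM in the fast.

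The 10 rule genes are described by their levels and are not read as results. Mki67, the classical marker of cycling cells, had 6.71, 4.60 and 5.24 CPM in tumors 1, 5 and 8, and 22.0 to 59.8 CPM with a median of 31.3 in the fast tumors. Top2a, the topoisomerase that untangles replicated chromosomes, had 6.88, 2.49 and 3.18 CPM against 13.4 to 50.2, median 22.3. Tumor 1 was the highest of the slow tumors for both. Ube2c and Cdc20, both of the anaphase-promoting machinery, had 1.51, 1.44 and 0.947 CPM against 5.06 to 15.3 and 2.18, 1.33 and 1.28 CPM against 6.76 to 18.5. The mitotic kinases Bub1, Plk1 and Aurkb reached 0.560, 2.01 and 2.10 CPM at most in the slow tumors and had 2.46, 3.14 and 2.79 CPM at least in the fast. Cyclin B1 (Ccnb1) and the spindle motor Kif11 reached 5.15 and 2.24 CPM in the slow tumors, against at least 6.01 and 2.93 CPM in the fast. In all, 9 of the 10 genes had no overlap between the groups, where 1.31% of all genes tested lay below every fast tumor. The groups were made from these 10 genes, so that this count is a description. Cdk1, the kinase that drives entry into mitosis, was the exception. Its level was 4.42, 8.30 and 9.41 CPM in the slow tumors and 8.10 to 23.5 CPM in the fast, so that here tumor 1 was the lowest of all tumors.

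Other genes of the cell cycle moved with the score that made the groups and are likewise a description. Of 71 mitosis genes outside the rule, 69 had a lower fitted level in the slow tumors with a median log2 difference of -1.39, and 39 lay below every fast tumor, as did 1.31% of all genes tested. Of 64 genes of DNA replication, 59 were lower with a median of -0.61, and 12 lay below every fast tumor. Rrm2, the ribonucleotide reductase subunit made in S phase, had 11.9, 15.0 and 12.7 CPM in the slow tumors against 16.0 to 73.6, median 34.0. Smc4 of condensin had 24.8, 23.6 and 20.1 CPM against 25.8 to 39.0. Pcna, the sliding clamp of DNA polymerase, overlapped between the groups with 61.7, 50.8 and 54.0 CPM against 58.6 to 89.6, and so did Rrm1 with a log2 difference of -0.59, Dnmt1 with -0.49 and E2f1 with -0.45. The ubiquitin-conjugating enzyme Ube2s (-0.22), the spindle checkpoint gene Bub3 (-0.24) and the centromere histone chaperone Hjurp (-0.13) had small differences on the log2 scale and overlapped.

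A few genes of these lists stood apart. Tpx2, which activates Aurora A on the spindle, was at 81.3 CPM in tumor 1 but 23.0 and 22.6 in tumors 5 and 8, within and below the fast range of 27.2 to 90.0. Its median in normal kidney was 1.72 CPM. Spc25, a kinetochore subunit, had 28.8, 48.7 and 54.1 CPM in the slow tumors against 19.2 to 41.1 CPM. Pttg1, securin, had a log2 difference of 0.18. In the replication list Fen1 (0.27), Cdc45 (0.24), Ccne2 (0.07), Rpa2 (0.05) and Gins3 (0.00) had differences at or above 0, all with overlapping groups, and under other settings these signs turned. Fen1, Cdc45 and Ccne2 overlap a gene on the opposite strand, and whether the counting used strand was not given in the sources used here. Other genes named in this text do so too, among them Cdc20, Ube2s, Dkc1, Cyp51 and Prkca. Cdc20 held 1683 counts over the tumors where Elovl1 on the other strand held 30472, and Dkc1 held 3169 where Mpp1 held 50788.

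The main test asked which other genes follow the split. Counts of 15623 genes in the 10 tumors were compared with the quasi-likelihood test of edgeR, and its p-value says how closely a gene keeps to groups that were themselves made from these libraries. No gene passed an adjusted p of 0.05, higher or lower in the slow tumors (0% called in each direction). The smallest adjusted p was 0.0787, and 1369 genes had an unadjusted p under 0.05, 797 with higher and 572 with lower levels in the slow tumors. DESeq2 on the same counts called 80 genes higher (0.512%) and 92 lower (0.589%), and limma-voom, which gave tumor 7 the lowest quality weight, 0.131, and tumor 8 the highest, 2.64, called 1133 higher (7.25%) and 935 lower (5.98%). These counts include genes of the cell cycle lists, which follow from the choice of tumors. Of the 92 genes that DESeq2 called lower, 9 were rule genes, 31 mitosis genes and 7 replication genes, and of the 935 of limma-voom these were 9, 42 and 17. Leaving out tumor 1, the slow tumor with the highest score, edgeR called 43 genes higher (0.264%) and 16 lower (0.0984%), 6 of the latter from the cell cycle lists, and without tumor 7 it called 1 higher and 8 lower, 7 of the latter from these lists.

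A simpler count is of genes whose groups do not overlap. In 230 of the 15623 genes (1.47%) each slow tumor was above every fast tumor, and in 205 (1.31%) each was below. With library totals in place of TMM factors this became 107 above and 390 below. The median log2 difference of all genes was -0.04, or -0.13 with library totals, and the medians of the gene lists are read against it. The counts and medians given for a list below come from lists chosen with earlier results of these data known and are descriptions.

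**Figure D2:**
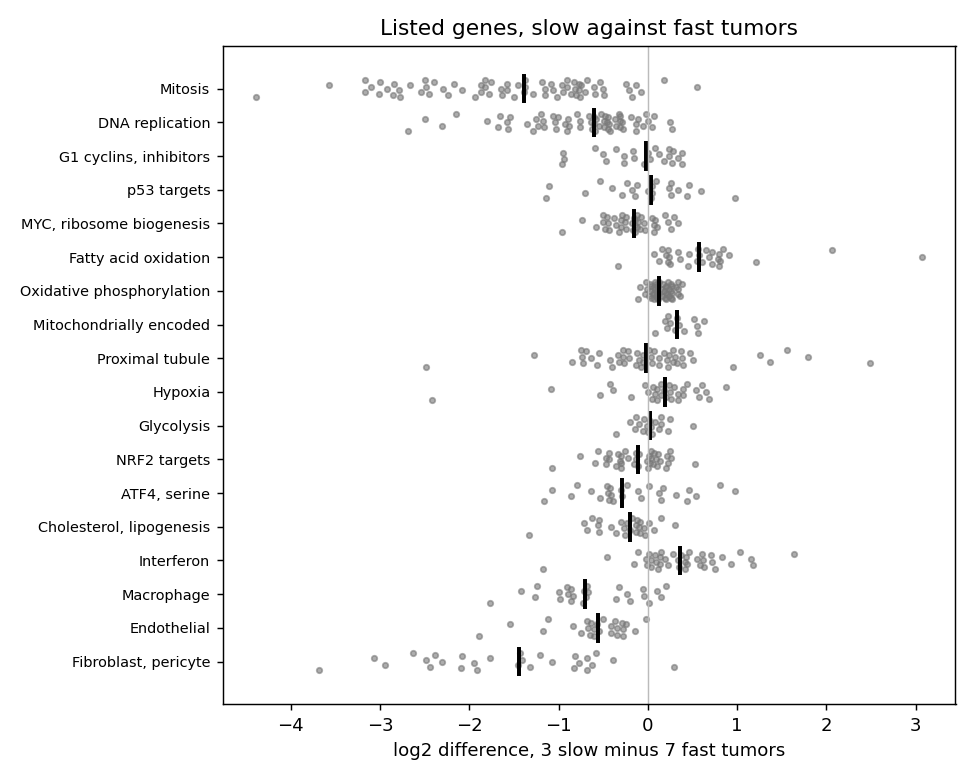
The log2 difference between the 3 slow and 7 fast tumors (horizontal axis) for the tested genes of 18 lists (rows), with a point for each gene and a black bar at the median. Mitosis and DNA replication lie to the left with medians of -1.39 and -0.61, and fatty acid oxidation to the right with a median of 0.57. The markers of fibroblasts and pericytes have a median of -1.44, and of -0.44 without tumor 7.

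Genes of fatty acid oxidation leaned towards the slow tumors. Of 30 genes, 29 had a positive log2 difference with a median of 0.57, against -0.04 for all genes tested, 16 had an unadjusted p under 0.05 and none an adjusted p under 0.05. Of the 30 genes, 4 lay above every fast tumor in all 3 slow tumors, against 1.47% of all genes. DESeq2 called 7 of the 30 higher, against 0.512% of all genes, limma-voom 17, against 7.25%, and edgeR without tumor 1 called 5, against 0.264%. None of these called a member lower. Such calls were not limited to this list. Limma-voom called 7 of 11 neutrophil markers higher, and 4 of 19 markers of the nephron beyond the proximal tubule. Of 32 hypoxia genes it called 7 higher and 2 lower. DESeq2 called 2 of the 19 nephron markers higher. Some other settings weakened the lean of the fatty acid oxidation genes. By edgeR, members with an unadjusted p under 0.05 fell to 11 with all 20 libraries and to 9 without tumor 5. They fell to 0, with a median of 0.34, when each tumor was set against the normal kidney of its number (the replicate block below). Among the slow tumors, the difference from the fast tumors was larger in tumors 5 and 8. Both were above every fast tumor in 20 of the 30 genes, against 9.83% of all genes, a count made after the values were seen, whereas in tumor 1 many of them were within the fast range.

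Hadhb, Acadvl and Etfdh were named by the smallest unadjusted p and the other genes of the pathway after their values were seen. Hadhb (mm10, chromosome 5, 30155248 to 30184593) had 201, 343 and 287 CPM in tumors 1, 5 and 8 and 130 to 188 CPM with a median of 151 in the fast tumors, a log2 difference of 0.79 ± 0.17 (SE, adjusted p = 0.284 by edgeR). Its partner Hadha had 322, 576 and 414 CPM against 219 to 336, so that tumor 1 fell inside the fast range. Acadvl, which opens the oxidation of very long chain fatty acids, had 124, 182 and 160 CPM against 86.7 to 120, and Eci1, an isomerase needed for unsaturated chains, 119, 191 and 157 CPM against 67.5 to 109. In both genes each slow tumor was above each fast tumor. Etfdh, which passes electrons from the acyl-CoA dehydrogenases to ubiquinone, had 126, 288 and 244 CPM against 114 to 139. Of the carnitine shuttle, Slc25a20, the carnitine carrier, had 48.2, 106 and 94.3 CPM against 44.0 to 68.2, and Cpt1a, the step that commits fatty acids to the mitochondrion, had 271, 486 and 386 CPM against 282 to 356 and a log2 difference of 0.24.

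Peroxisomal members and genes known as targets of PPAR alpha were also examined. Ehhadh, the peroxisomal bifunctional enzyme, had 217, 2082 and 1035 CPM in the slow tumors against 138 to 625.4, median 213, so that tumor 1 lay near the fast median and tumors 5 and 8 above all fast tumors. Acot12, an acetyl-CoA hydrolase whose promoter carries the direct repeat shown above, had 50.5, 151 and 115 CPM against 30.0 to 53.4. Ppara itself had 47.1, 86.8 and 71.8 CPM against 26.2 to 56.4. Its coactivator Ppargc1a was the only member of the list with a negative difference, -0.34, at 62.3, 49.2 and 38.9 CPM against 9.38 to 89.5.

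**Figure D3:**
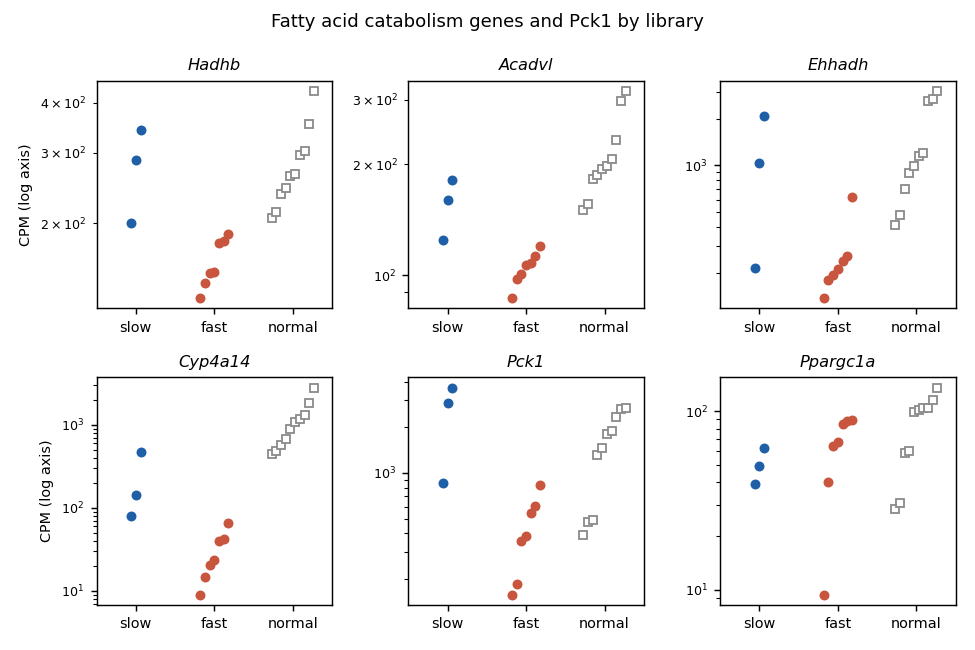
CPM on log axes for Hadhb, Acadvl, Ehhadh, Cyp4a14, Pck1 and Ppargc1a, with a point for each of 3 slow tumors, 7 fast tumors and 10 normal kidneys. In Hadhb, Acadvl, Cyp4a14 and Pck1 the 3 slow tumors are all above the fast ones, in Ehhadh tumors 5 and 8 are, and in Ppargc1a the groups overlap.

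The sum of the list was 5644, 11539 and 8917 CPM in tumors 1, 5 and 8 and 4672 to 5522 CPM in the fast tumors, and 5924 to 18472 CPM in the normal kidneys. All 3 slow tumors were thus above all fast tumors, tumor 1 by little, and tumors 5 and 8 reached the range of normal tissue. With library totals, tried after the values were seen, tumor 1 had 5293 CPM and lay below tumor 7 at 5373 CPM, while tumors 5 and 8 stayed above all fast tumors. With library totals 28 of the 30 genes had a positive difference and the median was 0.48. Respiratory chain genes had smaller values. Of 51 nuclear genes of oxidative phosphorylation, 46 had a positive difference but the median was 0.13, none had an unadjusted p under 0.05 and none was free of overlap. The smallest p-values were those of Cox6c, Ndufa3 and Ndufb3, with log2 differences of 0.38, 0.34 and 0.35. All 13 mitochondrially encoded genes had positive differences with a median of 0.33 and overlapping groups, among them mt-Nd1 (0.56), mt-Co1 (0.41) and mt-Co2 (0.52). The share of mitochondrially encoded counts, given above, moved with them, and its part in these differences was not tested.

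**Figure D4:**
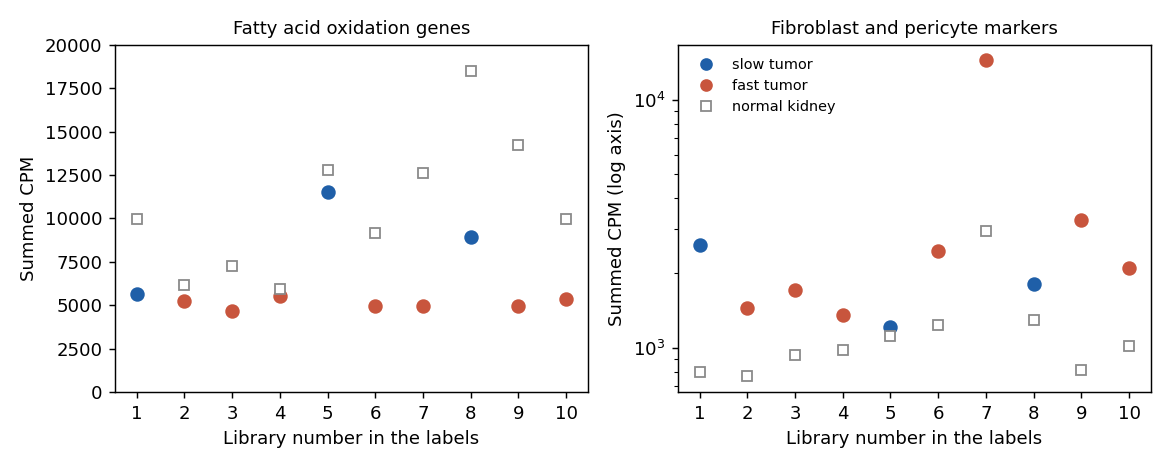
Summed CPM of 30 fatty acid oxidation genes (left, linear axis) and of 31 markers of fibroblasts and pericytes (right, log axis) by library number, with filled circles for tumors and open squares for normal kidneys. Tumors 5 and 8 stand at 11539 and 8917 CPM on the left, above fast tumors of 5522 CPM or less, and tumor 7 stands at 14413 CPM on the right.

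The 12 protein-coding genes with the smallest unadjusted p among those higher in every slow tumor, outside the cell cycle lists, again held genes of fat and glucose metabolism. None passed an adjusted p of 0.05 with edgeR. Prdx6, a peroxiredoxin that also repairs oxidized phospholipids, came first with 1293, 1742 and 1591 CPM in the slow tumors against 677 to 995, median 800, a log2 difference of 0.93 ± 0.16 (SE, edgeR adjusted p = 0.180). The normal kidneys had 178 to 654 CPM. Pck1 (chromosome 2, 173153048 to 173159273), the gluconeogenic enzyme of the proximal tubule, had 858, 2903 and 3638 CPM against 158 to 835, median 384, a log2 difference of 2.49 ± 0.52 (edgeR adjusted p = 0.284). Tumor 1 was just above the highest fast tumor and the other 2 were far above. Cyp4a14 (chromosome 4, 115486200 to 115496142), a fatty acid omega-hydroxylase and a textbook target of PPAR alpha, had 80.2, 468 and 143 CPM against 9.03 to 65.5, median 23.3, a log2 difference of 2.89 ± 0.61 (edgeR adjusted p = 0.284), where normal kidney had 441 to 2809 CPM, so that of the 10 tumors only tumor 5 reached the normal range.

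Further genes of the 12 were spread over several functions. Fdx1, the ferredoxin that feeds electrons to mitochondrial P450 enzymes, had 128, 148 and 123 CPM against 76.2 to 104, and Cyp2d22, a microsomal P450, 61.4, 98.7 and 83.7 CPM against 38.6 to 56.3. Prkca, protein kinase C alpha, had 42.2, 86.0 and 89.9 CPM against 28.5 to 40.1. Rasd2, a small Ras-like GTPase, had 7.11, 14.5 and 23.5 CPM against 1.27 to 5.60. Sh3yl1, an adaptor with an SH3 domain, differed by 0.68 on the log2 scale. Slc12a3, the thiazide-sensitive cotransporter of the distal convoluted tubule, had 2.29, 7.75 and 5.35 CPM against 0.123 to 2.02, while normal kidney had a median of 1363 CPM.

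**Figure D5:**
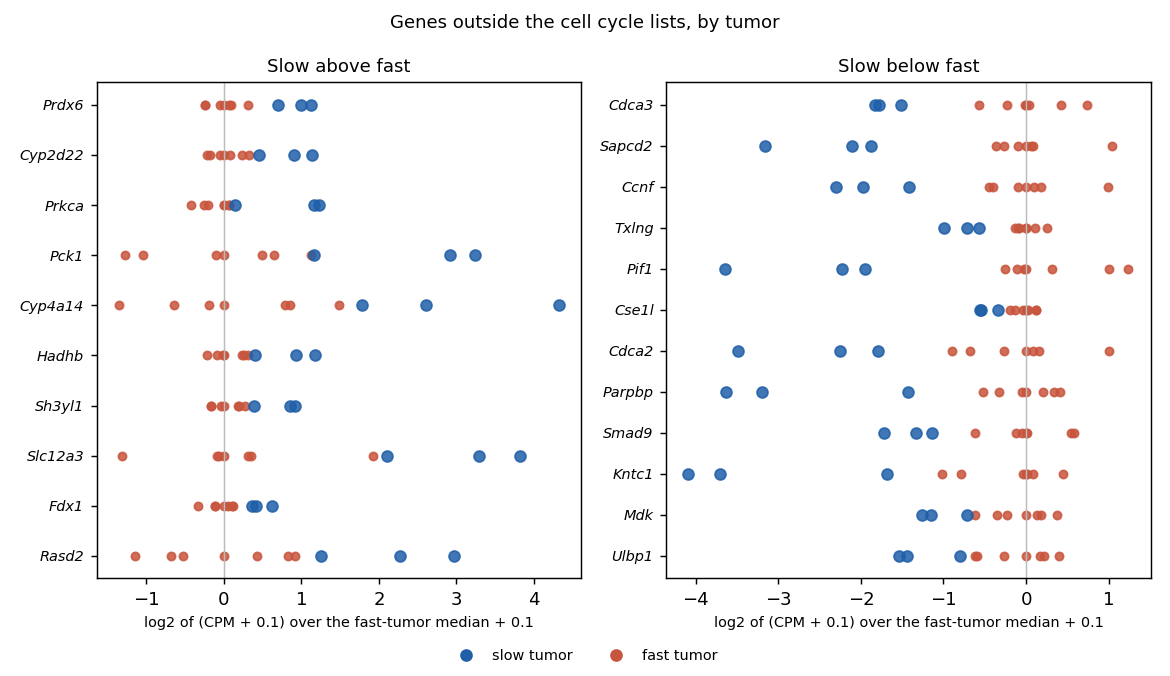
log2 of each tumor's CPM + 0.1 over the median of the fast tumors + 0.1 (horizontal axis) for 10 genes above and 12 below in the slow tumors (rows), with blue points for the 3 slow and red points for the 7 fast tumors. The groups do not overlap in any row, as the rule for naming the genes required, and tumor 1 is the slow tumor nearest to the fast ones for Pck1, Prkca and Hadhb among others.

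The 12 genes lower in every slow tumor stood in none of the fixed cell cycle lists, although several have known roles in cell division, the process that made the groups. Cdca3, which promotes entry into mitosis, had 2.63, 2.71 and 3.29 CPM against 6.45 to 16.1, median 9.58, a log2 difference of -1.86 ± 0.30 (SE, edgeR adjusted p = 0.134). Ccnf, cyclin F, had 1.51, 0.775 and 1.00 CPM against 3.06 to 8.52, and Kntc1, a kinetochore protein of the spindle checkpoint, 1.90, 0.277 and 0.390 CPM against 3.06 to 8.66. Cdca2, a phosphatase subunit of mitotic chromosomes, Sapcd2, a regulator of spindle orientation, and the DNA repair genes Pif1 and Parpbp had log2 differences of -2.57, -2.92, -3.55 and -2.84, all from levels under 1 CPM in each slow tumor. Of the 12, genes with other known roles were Cse1l, the export receptor that recycles importin alpha, with 40.6, 35.0 and 34.7 CPM against 44.6 to 55.7, and Mdk, the heparin-binding growth factor midkine, with 20.9, 14.3 and 15.4 CPM against 22.3 to 44.6. Ulbp1, a ligand for the NKG2D receptor of natural killer cells, had 19.2, 12.3 and 11.5 CPM against 21.9 to 44.5, where normal kidney had a median of 0.927 CPM. Smad9, a transducer of BMP signals, and Txlng, a taxilin, differed by -1.62 and -0.78. Txlng overlaps Rbbp7 on the opposite strand, and Rbbp7 held 222098 counts over the tumors where Txlng held 2228.

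Regulators that hold cells in or out of the cycle lay on both sides. Of 24 genes of G1 cyclins and their inhibitors, 11 had a positive and 13 a negative difference with a median of -0.02 and none without overlap. Cdk4, the kinase that starts the passage through G1, had 95.7, 59.7 and 80.3 CPM against 92.5 to 126, and Rbl1, the pocket protein p107, 5.37, 5.32 and 4.96 CPM against 5.08 to 15.4. E2f3 lay the other way with 22.9, 27.3 and 24.7 CPM against 17.1 to 23.3. Among 23 p53 targets the median was 0.04. Sesn2, a sestrin that restrains mTORC1 when amino acids are short, had 76.9, 123 and 141 CPM against 38.8 to 79.8, with log2 differences of 0.44 for Pmaip1 and 0.23 for Ei24. Of 41 genes of ribosome biogenesis and MYC, 31 were lower with a median of -0.16. Nop58, a core protein of small nucleolar RNPs, was the 1 of these without overlap at 22.4, 19.0 and 19.5 CPM against 22.8 to 38.2. Of all genes tested, 1.31% lay below every fast tumor. Dkc1 and Imp4 had log2 differences of -0.44 and -0.33.

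The pathways that the edited genes control were examined next. In these tumors Vhl, Pbrm1, Keap1 and Tsc1 were all targeted, and RNA level is not a measure of editing, since a transcript with a small insertion or deletion is still counted. Tsc1 had 30.1, 52.0 and 45.8 CPM in the slow tumors against 26.0 to 39.4, and Vhl 18.8, 28.6 and 18.4 CPM against 12.4 to 21.2, with log2 differences of 0.52 and 0.36. Pbrm1 and Keap1 differed by -0.16 and -0.04, and these signs turned without tumor 1, to 0.025 and 0.0096. Of 32 hypoxia genes, which VHL loss switches on through HIF, 24 had a positive difference with a median of 0.19, 5 an unadjusted p under 0.05, and none was free of overlap. Higd1a, a HIF target of the mitochondrion, had 138, 298 and 242 CPM against 89.6 to 142, Bnip3, a mitophagy receptor, 385, 792 and 623 CPM against 293 to 451, and Cited2, which limits HIF activity, 201, 272 and 268 CPM against 137 to 219. In each of the 3, tumors 5 and 8 were above all fast tumors and tumor 1 was not. Glycolysis had a median of 0.03 over 19 genes, with Pgm2 at 0.22, Pfkm at -0.35 and the lactate exporter Slc16a3 at 0.15.

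Targets of NRF2, the factor that KEAP1 holds down, had a median of -0.11 over 39 genes, 16 positive and 23 negative. Prdx1 was the 1 of the 39 without overlap, at 1642, 1548 and 1657 CPM in the slow tumors against 1674 to 2877. Of all genes tested, 1.31% lay below every fast tumor. Txnrd1, thioredoxin reductase, had 520, 418 and 364 CPM against 500 to 807, and Gclc, the rate-limiting enzyme of glutathione synthesis, 575, 559 and 507 CPM against 401 to 1411. Lysosomal genes had a median of -0.07 over 35, and Gla, Sgsh and Ctsl differed by -0.44, -0.42 and 0.43. Among 27 genes of ATF4 and serine synthesis the median was -0.29. Phgdh, the first enzyme of serine synthesis, had 14.5, 5.43 and 4.85 CPM against 12.5 to 22.8, and Psat1, the second, 123, 234 and 237 CPM against 78.4 to 150. Of 27 genes of cholesterol and fatty acid synthesis 23 were lower with a median of -0.21. Acaca, acetyl-CoA carboxylase, had 72.2, 57.7 and 49.0 CPM against 44.4 to 139, with Cyp51 at -0.56.

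The fatty acid genes are abundant in proximal tubule cells, so that other genes of these cells were set beside them. Of 50 proximal tubule genes tested 25 were higher and 25 lower with a median of -0.02. The summed level of the list was 28406, 33521 and 25932 CPM in tumors 1, 5 and 8 and 6857 to 36932 CPM in the fast tumors, median 27435. Pck1 was the 1 member of the 50 without overlap, where 1.47% of all genes tested lay above every fast tumor. Nat8, an acetyltransferase of the tubule, had 78.2, 235 and 298 CPM against 51.8 to 130, Cyp4b1, a P450 of fatty acids, 100, 302 and 198 CPM against 48.7 to 152, and G6pc, the last step of glucose release, 279, 566 and 716 CPM against 11.8 to 303. G6pc and the next 3 genes were named after their values were seen. Hnf4a, a master regulator of proximal tubule identity, was close in both groups with a log2 difference of -0.10, and Slc34a1 and Cubn had -0.70 and -0.12. Kidney identity factors had a median of 0.07 over 8 genes, with Emx1 at -2.91, Lhx1 at 0.31 and Cdh1, E-cadherin, at 36.9, 96.8 and 101 CPM against 10.2 to 58.2. Injury markers had a median of -0.19 over 37 genes, with Krt8 at 0.70 and C3 at 1.06. Tnfrsf12a was the 1 of the 37 without overlap, at 264, 283 and 249 CPM against 158 to 246, beside the same 1.47% of all genes. In the lower nephron list, of which 19 of 36 genes passed the filter, Trpm6 differed by 1.21 and Upk1b by -6.45.

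Genes of other cell types moved with tumor 7. Fibroblast and pericyte markers had a median log2 difference of -1.44 over 28 genes, and -0.44 without tumor 7. Col3a1, a fibrillar collagen, had 87.3, 32.9 and 48.4 CPM in the slow tumors and a median of 76.8 CPM in the fast, where tumor 7 reached 4297 CPM, and Lum and Fbln1 had -2.31 and -2.09. Matrix genes went from -0.79 to -0.07 over 46 genes, with Col15a1 at -1.77. Macrophage markers had -0.71 over 26 genes and 0.02 without tumor 7, with Lyz2 at -0.99, Ms4a7 at -1.24 and Ccr2 at -0.86. Neutrophil markers turned from -1.98 to 1.40 over 11 genes. With tumor 7, edgeR gave 2 higher and 9 lower, none at an unadjusted p under 0.05. Il1b, Arg1 and Csf3r had -2.16, -3.09 and -1.64 in that fit. With tumor 7 kept, the median was 1.22 by DESeq2, which called 1 higher, and 1.86 by limma-voom, which called 7. Neither called a member lower, so the direction depended on the method and on tumor 7. The list summed to 14.1, 82.7 and 53.9 CPM in tumors 1, 5 and 8 against 13.0 to 786. Tumors 5 and 8 were above every fast tumor but tumor 7, and the next fast tumor had 53.5 CPM. Adipocyte markers had -1.75 over 7 genes and -0.62 without tumor 7, with Plin1 at -2.07, Retn at -1.86 and Lep at -3.37. These lists name cells that share the tissue with the tumor cells, and their part in the differences of other genes was not tested.

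Endothelial markers had a negative median with and without tumor 7. All 26 were lower in the slow tumors with a median of -0.56, and the median was -0.36 without tumor 7, but 1 of the 26 had an unadjusted p under 0.05 and none was free of overlap. The summed level of the list was 1410, 756 and 854 CPM in tumors 1, 5 and 8 against 921 to 2304 CPM, so that tumor 1 was within the fast range and tumors 5 and 8 below it. Kdr, the main VEGF receptor, had 56.4, 25.1 and 29.6 CPM against 34.7 to 75.9, Tek, the angiopoietin receptor, 17.01, 7.70 and 8.24 CPM against 11.5 to 24.6, and Aplnr, the apelin receptor, 9.62, 2.05 and 4.85 CPM against 8.72 to 19.4. Tumors 5 and 8 were below all fast tumors in these 3 genes and tumor 1 within the fast range. Interferon genes had a median of 0.36 over 40 genes with 34 higher and 3 at an unadjusted p under 0.05, and 0.26 without tumor 7. Rsad2, the antiviral enzyme viperin, had 110, 129 and 196 CPM against 36.0 to 115, Mx2 5.93, 5.98 and 7.85 CPM against 1.03 to 5.28 and Mx1 1.96, 2.77 and 7.85 CPM against 0.286 to 3.61. Class II antigen genes had a median of -0.19 over 8 genes, with H2-Aa at -0.39, H2-Eb1 at -0.83 and H2-Ob at -1.63.

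Few lymphocyte genes passed the filter, 9 of 31 for T and natural killer cells and 7 of 16 for B and plasma cells. The 9 T and natural killer genes had a median log2 difference of -0.44, with 7 lower and 2 higher and none at an unadjusted p under 0.05 by edgeR. Cd4, Trac and Thy1, named by the smallest p, had -1.34, -1.49 and -1.20. All 7 B and plasma cell genes were lower with a median of -1.25, and 2 had an unadjusted p under 0.05. Igha, the constant region of immunoglobulin A, had 2.52, 0.609 and 0.780 CPM against 1.38 to 35.3, with Cd79b at -1.62 and Igkc at -1.53. Growth factor and receptor genes had a median of -0.20 over 46 genes. Erbb3, a receptor for neuregulins, had 104, 272 and 230 CPM against 54.4 to 135, with Egf at 0.83 and Hbegf at 0.39. Genes of red cells had a median of -0.003 over 7 genes, with Slc4a1 at 0.95 and Hba-a2 at 0.34. Of the muscle list 3 of 10 genes passed, Actn3, Acta1 and Mylpf, at -1.19, 0.64 and -0.55, and of the adrenal list Star alone at -0.50.

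The normal kidneys were not used to choose the tumors, and those with the numbers 1, 5 and 8 were compared with the other 7. The labels say that normal tissue came from the same mice and not that a number marks a mouse. The rule score was 1.12 ± 0.211 (SD, n = 3) in kidneys 1, 5 and 8 and 2.12 ± 1.03 (SD, n = 7) in the others, with an exact two-sided permutation p of 0.133. Kidneys 5 and 8 were below all 7 others and kidney 1 was not. Without kidney 7, left out after its value was seen, the difference went from -0.998 to -0.64 with an exact permutation p of 0.0595. Of 16608 genes none passed an adjusted p of 0.05 (0%) with edgeR, while 691 had an unadjusted p under 0.05 and DESeq2 called 13. In 112 genes (0.674%) kidneys 1, 5 and 8 were above all others and in 122 (0.735%) below.

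Mitosis genes had a median log2 difference of -1.25 in these kidneys, with 62 of 66 lower and 5 below every other kidney, and of -0.45 without kidney 7. DNA replication genes had -0.23, and 0.05 without kidney 7. Mki67 had 4.11, 3.27 and 2.05 CPM in kidneys 1, 5 and 8 and 3.93 to 51.5 CPM with a median of 9.08 in the others. Of the 30 fatty acid oxidation genes 17 were higher in kidneys 1, 5 and 8, with a median of 0.13 and 2 at an unadjusted p under 0.05. The list summed to 9962, 12785 and 18472 CPM against 5924 to 14198 CPM, and kidney 8 was the highest of the 10. Genes named here from the kidneys were chosen after their values were seen. Cyp4a14 had 1078, 1832 and 2809 CPM against 441 to 1307, a log2 difference of 1.26 (edgeR adjusted p = 0.896). Pck1 and Hadhb had 0.08 and 0.14. Kidneys 5 and 8, and also kidney 7, differed from the rest in injury markers, which summed to 44294, 33403 and 60415 CPM in them and to 7227 CPM or less in the other 7, and the part of this in the differences was not tested. Igha had 14.1, 18.8 and 9.55 CPM in kidneys 1, 5 and 8, all below the 21.8 to 191 CPM of the others, with an unadjusted p of 0.000399 and an adjusted p of 0.896 by edgeR.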

How the data were processed

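The authors deposited raw read counts per gene for 10 tumors and 10 normal kidneys (paired 150-base reads according to the methods), and these counts were used as deposited. The submitters' processing notes name mm10. The aligner, the counter and its strand setting are not given in the sources used here. The table held 54532 genes, and 0 columns of sample values were left unused. Tumors were grouped by the rule score described above. The members and lists were chosen with earlier results of these data known. Genes with a count of at least 10 in enough libraries (edgeR's filterByExpr) were normalized by TMM and compared, slow against fast, by the quasi-likelihood test of edgeR 4.0.16 in R 4.3.3, with Benjamini-Hochberg adjustment and a threshold of 0.05. Library measures were compared by exact two-sided permutation. Of 957 listed symbols 6 were not in the table.

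Per direction, 12 protein-coding genes outside the cell cycle lists were named that did not overlap between groups and had a mean of at least 1 CPM in one of them. Since no gene passed the adjusted p, they were taken by unadjusted p. Some of the genes these rules name are not reported here. Each list added up to 3 members with the smallest p, all 4 edited genes and all rule genes, and the mitosis and replication lists their 5 most abundant members and any against the split. Alternatives were RLE factors, library totals, no filter, DESeq2 1.42.0, limma-voom (limma 3.58.1), all 20 libraries, the score as a number, a replicate block, omission of the 20 most abundant genes and of each library in turn. Comparisons without kidney 7, the sum of the fatty acid list by library totals and the count for tumors 5 and 8 alone were added after the data were seen. The scripts were tested on simulated data. Between tumors, chi-square per degree of freedom of the counts was at least 27.4, so that no library was a copy of another. Promoters were taken from RefSeq, GRCm38.p6. Total counts of 14737516 to 26679704 per library limit the precision of genes with few counts.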

Additional observations from a re-analysis of the deposited data

Results flagged for a closer look

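In groups of 7 or 10 libraries, 76 sets of values were searched for a library that stood apart by Dixon's 95% limit for the gap to its nearest neighbour over the whole range, and 15 were found. Chance alone gives about 1 in 20 for independent sets. These sets share libraries and some share genes, so that the 15 cannot be weighed against that rate. Tumor 7 accounted for 9 of the 15. For summed levels and single genes the gaps were taken on log2(CPM + 1), while the levels printed below are CPM.

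Tumor 7 was the highest fast tumor for the summed CPM of neutrophil markers (786 against 53.5 in the next, gap 0.662 of the range), of fibroblast and pericyte markers (14413 against 3265, gap 0.629), of matrix genes (23714 against 9506, gap 0.681) and of adrenal markers (10.7 against 2.96, gap 0.764). It was the highest for Sapcd2 (2.77 against 1.37 CPM, gap 0.721) and Ccnf (8.52 against 4.81 CPM, gap 0.580). It was the lowest for hypoxia genes (8016 against 10932 CPM, gap 0.688), for kidney identity factors (533 against 975 CPM, gap 0.583) and for Keap1 (56.7 against 79.5 CPM, gap 0.707).

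Of the other fast tumors, tumor 9 was low for muscle genes (5.67 against 12.02 CPM, gap 0.645), tumor 4 high for Slc12a3 (2.02 against 0.609 CPM, gap 0.637) and tumor 2 high for Tsc1 (39.4 against 30.6 CPM, gap 0.608). Among all 10 normal kidneys, kidney 7 was high for the rule score (4.26 against 2.30, gap 0.586), and kidney 9 low for the TMM factor (0.754 against 1.02, gap 0.680) and for the number of genes with a count (19996 against 22021, gap 0.693).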

How the results depend on the processing

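The count of genes called slow against fast was 0 in each direction with RLE factors, library totals, no filter, all 20 libraries and without the 20 most abundant genes, and was 80 higher and 92 lower with DESeq2, 1133 and 935 with limma-voom and 26 and 126 with the score as a number. Leaving out 1 tumor gave 0 to 43 higher and 0 to 16 lower, with the most without tumor 1, and 1 and 8 without tumor 7. Genes without overlap were 107 above and 390 below with library totals, and 259 to 1536 above and 222 to 1098 below when 1 tumor was left out, with 1536 and 1098 without tumor 1, 386 and 317 without tumor 5, 373 and 387 without tumor 7, and 313 below without tumor 8. The normal kidneys gave 13 called genes with DESeq2 and 0 to 4 when 1 kidney was left out (4 without kidney 1). No library measure passed its threshold when 1 tumor was left out, and the slow group kept its 3 members. Of the log2 differences of named genes under other settings, 2306 kept direction and side of the threshold, 150 passed it and 65 changed sign. The causes were not tested. Genes of low counts, such as those of immune and adrenal cells, are limited by depth.

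The replicate block was fitted to all 20 libraries with terms for the number, for tumor and for slow tumor. Its value is the tumor-minus-kidney difference of the slow numbers less that of the other numbers. It therefore moves with the normal kidneys too and is not the same comparison as slow against fast tumors. With the replicate block no gene was called, at a smallest adjusted p of 0.961 by edgeR. Unadjusted p-values under 0.05 numbered 365 higher and 243 lower. Of the 30 fatty acid oxidation genes, 25 were higher with a median of 0.34, and 0 rather than 16 had an unadjusted p under 0.05. Tumors and kidneys of one number had deviations correlated between -0.128 and 0.388, with 9 of 10 pairs over 0.1 and pair 9 the exception, and 8 of 10 tumors correlated best with their own number, a hint that the numbers may mark mice. The block was kept as an alternative, since the labels do not state this and not every pair was over 0.1. Signs changed under the replicate block for E2f3 (-0.69), Pmaip1 (-0.0097), Pgm2 (-0.0061), Pfkm (0.42), Ctsl (-0.68), Psat1 (-0.44), Cyp51 (0.18), Tnfrsf12a (-0.84), C3 (-0.71), Lyz2 (0.37), Cd4 (0.073), Thy1 (0.0023), Igha (0.37), Igkc (0.74), H2-Eb1 (0.48), H2-Aa (0.83), Aplnr (0.35), Hbegf (-0.61), Actn3 (0.86), Mylpf (0.034), Cdk1 (0.62), Tpx2 (0.68), Ube2s (0.14), E2f1 (0.33), Fen1 (-0.63), Rpa2 (-0.17) and Gins3 (-0.038).

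With DESeq2 the sign changed for Arg1 (0.79) and Star (0.15). With limma-voom it changed for Arg1 (1.33), Csf3r (0.27), Plin1 (0.58), Retn (0.14), Star (0.27), Pbrm1 (0.14), Hjurp (0.00050), Ccne2 (-0.033) and Gins3 (-0.11). With the score as a number it changed for Hba-a2 (-0.14), Keap1 (0.060), Fen1 (-0.017), Cdc45 (-0.015) and Rpa2 (-0.12), with library totals for Ccne2 (-0.027), Rpa2 (-0.054) and Gins3 (-0.075), and without the 20 most abundant genes for Gins3 (-0.00053). Leaving out 1 tumor gave ranges across 0 for Arg1 (-3.89 to 0.83), Acta1 (-0.059 to 0.96), Star (-0.65 to 0.15), Hba-a2 (-0.25 to 0.96), Pbrm1 (-0.39 to 0.025), Keap1 (-0.10 to 0.0096), Hjurp (-0.25 to 0.032), Cdc45 (-0.17 to 0.42), Ccne2 (-0.16 to 0.17), Rpa2 (-0.057 to 0.21) and Gins3 (-0.14 to 0.11).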
